A study of Homo sapiens with 12 samples.

Results

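The comparison set 3 libraries of Caco-2 cells given bafilomycin A1 in rich medium directly against 3 libraries of Caco-2 cells kept in depleted medium with vehicle, 6 of the 12 libraries of the series. It asked which transcripts separate a block of lysosomal acidification from a shortage of nutrients. The libraries were taken by their labels, and all genes that passed a filter on low counts were tested. Caco-2 is a human colorectal adenocarcinoma line with features of absorptive gut epithelium, and the labels give the genotype of all cells as WT. The bafilomycin A1 group ("BafA1 group" below) stood for 48 h in Eagle's minimum essential medium with 1 g/L glucose, 2 mM glutamine, 20% fetal bovine serum and 100 nM bafilomycin A1. The depleted group stood for 48 h in glucose-free and glutamine-free DMEM to which 0.1 g/L glucose, 0.2 mM glutamine and 1% serum were added, with vehicle and no bafilomycin A1. Both media carried pyruvate, non-essential amino acids and penicillin-streptomycin. The groups thus differed in drug, base medium, glucose, glutamine and serum at once, and the parts of these in any difference cannot be told apart. The other 6 libraries, 3 of rich medium with vehicle and 3 of depleted medium with bafilomycin A1, entered the fit and served as reference levels. The labels do not say that replicates were separate cultures, so p-values speak of the spread among the libraries, part or all of which may be technical.

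Lysosomes break down proteins, lipids and sugars and are kept acidic by the V-ATPase, a proton pump that bafilomycin A1 inhibits. When the lumen is no longer acid, autophagic cargo is not digested and iron and cholesterol taken up by endocytosis are not released into the cytosol. Shortage of glucose, glutamine and serum acts from outside the lysosome: glycolysis lacks its substrate, growth factor receptors lack ligand, amino acid and endoplasmic reticulum stress pathways are engaged, and cells leave the cycle. Both conditions are known to lower the activity of mTORC1, the growth kinase that is switched on at the lysosomal surface.

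Replicate 3 of the BafA1 group stood apart from its group and lay towards the depleted libraries. Each library was placed between the groups on the genes that separated the groups when that library was left out of the fit, with 0% at the mean of the other group and 100% at the mean of its own 2 remaining libraries. Over 2069 such genes BafA1 replicate 3 had a median position of 37.3% (quartiles 24.8% and 49.0%), and 75.9% of the genes lay nearer to the depleted group than to BafA1 replicates 1 and 2. Replicates 1 and 2 lay at 119.7% and 134.2%, over 168 and 144 genes, and the depleted libraries at 107.1%, 82.0% and 89.9%. Its median position was 42.3% over the 1166 genes that were higher in its own group and 28.9% over the 903 that were lower, an order that turned on linear CPM (32.7% and 39.7%). By rank over all genes tested it correlated with depleted replicates 1, 2 and 3 at rho = 0.987, 0.985 and 0.990, and at 0.985 with each of BafA1 replicates 1 and 2, which stood at 0.992 with each other. What set this library apart was not tested. Total counts between the 2 groups, and many list counts and fold changes, are given below with and without it. Comparisons with rich vehicle, and the placement of the reference groups, were made only with it.

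**Figure D1:**
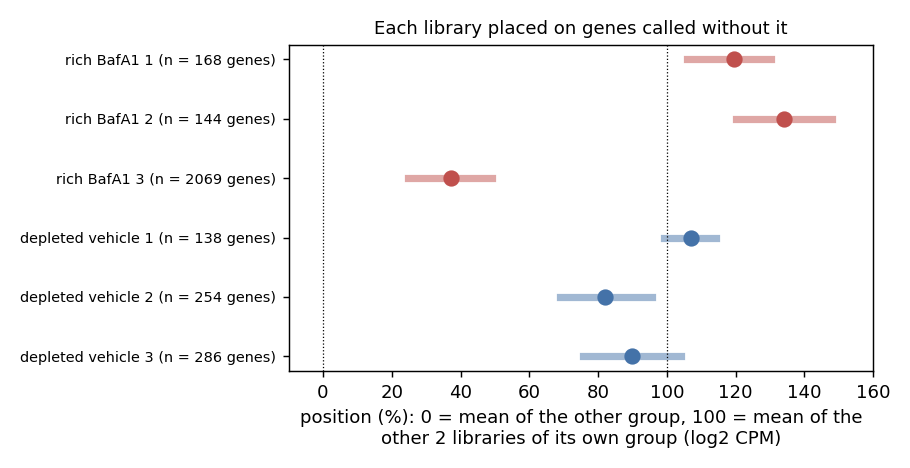
Position of each of the 6 libraries between the group means, in percent on the log2 CPM scale (x axis), over genes that separated the groups without that library (number in brackets). Points are medians and bars run between quartiles, and BafA1 replicate 3 lies at 37.3% while the other 5 libraries lie between 82.0% and 134.2%.

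The 6 libraries held 36152188 to 51649213 reads assigned to genes, and all 12 held 12969814 to 51649213. Epithelial markers (EPCAM, cadherin, keratins, VIL1, intestinal transcription factors) summed to 6564 to 8135 CPM (read counts scaled to library size with TMM factors) in the BafA1 libraries and 5635 to 6644 in the depleted ones. Of 12 such markers, 10 exceeded 1 CPM in every library of both groups and CDX1 was at 0. Markers of fibroblasts summed to 116 to 187 and 87.0 to 139.7 CPM, of leukocytes to 29.7 to 42.6 and 25.8 to 38.4 CPM, and of endothelium to 4.74 to 6.84 and 7.46 to 10.2 CPM. THY1 and MS4A1 were at 0 in both groups, CLDN5 in the BafA1 group, and KDR and TEK in the depleted group. The part of any other cell type in the results was not tested.

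Genes of glucose use, sterol synthesis, receptor tyrosine kinase output and DNA replication stood higher in the BafA1 group, whereas 4 of 128 lysosomal, autophagy and V-ATPase genes were called (3.12%), a share near that over all genes. In all, 724 of 18047 genes tested (4.01%) passed an adjusted p of 0.05 and are called here. Of these, 566 were higher in the BafA1 group (3.14%) and 158 were lower (0.875%), and 335 and 69 of them differed by at least 2-fold. Over all genes the median log2 fold change, BafA1 group minus depleted group, was -0.03. Without BafA1 replicate 3, 1172 genes were higher (6.27%) and 906 lower (4.85%) among 18683 tested, and all 724 genes stayed called in the same direction. Without that library the size of the log2 fold change was larger in 721 of the 724 (median gain 0.20), and in all 84 called genes that the naming rule and the panel selected, by 0.075 to 0.87. Leaving out any 1 of the other 5 libraries left 135 to 251 genes higher and 0 to 41 lower. In bulk RNA fewer cells of a kind and less RNA per cell cannot be told apart.

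The rich-medium vehicle libraries showed on which side of the untreated level each difference fell. Among the 566 genes higher in the BafA1 group, the rich vehicle mean lay above both groups in 300, between them in 242 and below both in 24. Of the 158 lower genes it lay below both groups in 116, between them in 40 and above both in 2. Cells that received both treatments stood nearer to the depleted vehicle group than to the BafA1 group in 481 of the 566 higher genes and in 109 of the 158 lower ones. For BafA1 against rich vehicle 1971 genes were called (10.9%), 1109 higher (6.15%) and 862 lower (4.78%). For depletion 5577 were called (30.9%), 2802 higher (15.5%) and 2775 lower (15.4%). All these values include BafA1 replicate 3. The BafA1 and the depleted group were both compared with the same rich vehicle libraries, so these 2 comparisons share their controls and their values are only set side by side.

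**Figure D2:**
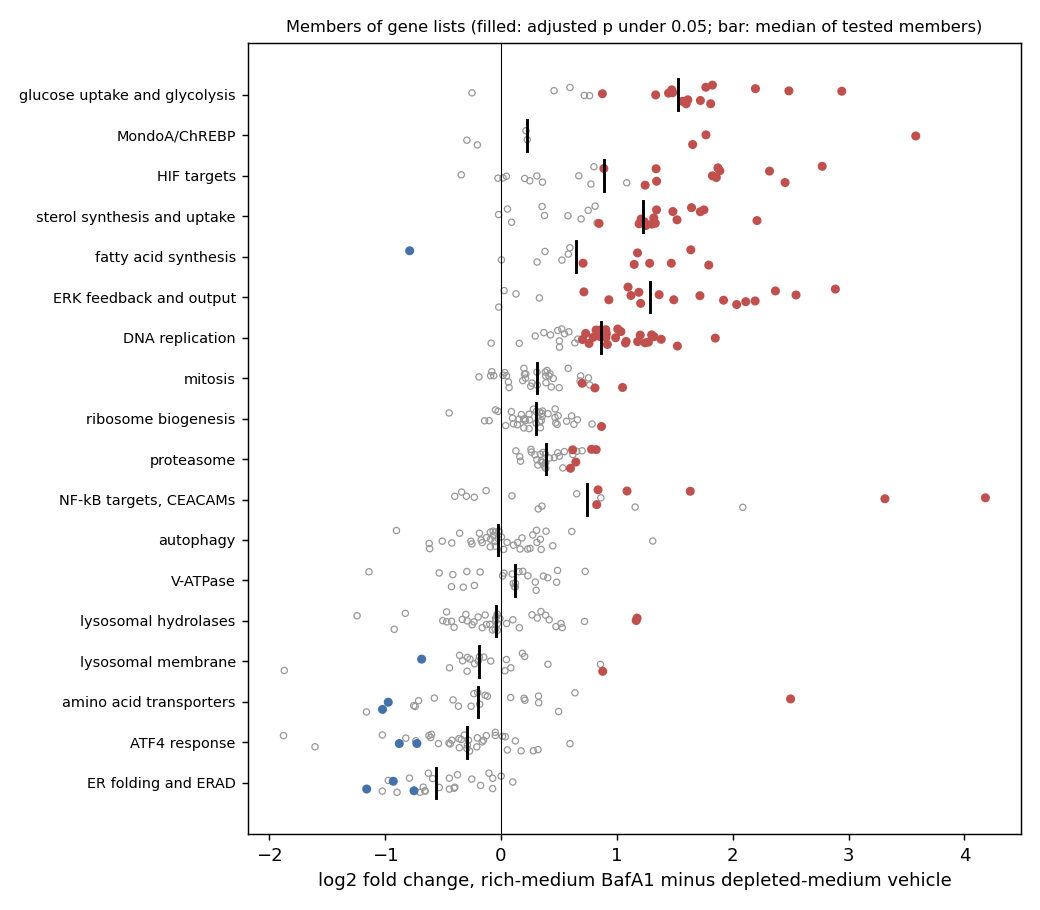
Log2 fold change of each tested member of 18 gene lists, BafA1 group minus depleted group (x axis); filled points passed an adjusted p of 0.05 and bars mark medians. Glycolysis, sterol, ERK and DNA replication members lie to the right (medians 1.52, 1.22, 1.29 and 0.86), V-ATPase and autophagy members around 0 (0.12 and -0.02), and endoplasmic reticulum members to the left (-0.56).

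Genes of glucose uptake and glycolysis were mostly higher in the BafA1 group. Of 20 genes tested, 15 were higher in the BafA1 group and none was lower (median log2 fold change 1.52, against 3.14% higher and a median of -0.03 over all genes), and 16 were higher without replicate 3. Against rich vehicle the list's median was 0.14 for BafA1 and -1.12 for depletion. LDHA, which makes lactate from pyruvate (chromosome 11, 18394563 to 18408425, GRCh38.p14), stood at 930.4, 1383 and 470.2 CPM in BafA1 replicates 1, 2 and 3 and at 118, 118 and 125 CPM in the depleted libraries. The groups did not overlap, and replicate 3 was the lowest BafA1 library but still above all depleted ones. The log2 fold change was 2.94 (SE 0.29, edgeR quasi-likelihood adjusted p = 0.00012), and 3.26 without replicate 3. Its level in rich vehicle was 772 ± 92.9 CPM (SD, n = 3), and in depleted medium with bafilomycin A1 126 ± 10.3 CPM. SLC2A1, the main glucose transporter GLUT1 of growing cells, stood at 1634, 2302 and 958 against 271, 479 and 317 CPM (log2 fold change 2.20, adjusted p = 0.0014; 2.47 without replicate 3). Its lowest BafA1 library, replicate 3, lay above the highest depleted one, replicate 2. The aldolase ALDOC stood at 53.7, 81.1 and 31.2 against 9.86, 9.47 and 10.3 CPM (2.49, adjusted p = 0.00041), and HK2, a hexokinase, at 107, 134 and 63.98 against 35.4, 36.6 and 37.2 CPM (1.48, adjusted p = 0.0015). In both genes replicate 3 lay between the depleted libraries and the other BafA1 libraries. The other called members, PFKP, PFKFB3, ALDOA, TPI1, GPI, PGK1, PGAM1, ENO1, ENO2, PKM and the lactate exporter SLC16A3, had log2 fold changes of 0.88 to 1.83. HK1, another hexokinase of the list, was not called. With any 1 of the 5 libraries other than BafA1 replicate 3 left out, 13 of the 20 were higher.

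TXNIP, which restrains glucose uptake and is switched on by the glucose-sensing factors MondoA and ChREBP, was among the genes with the highest fold change. TXNIP (chromosome 1, 145992435 to 145996579) stood at 59.4, 50.7 and 19.2 CPM in the BafA1 libraries and 3.03, 4.105 and 3.71 CPM in the depleted ones. The groups did not overlap, with BafA1 replicate 3 between the rest. The log2 fold change was 3.58 (SE 0.35, adjusted p = 0.0001), and 3.93 without replicate 3. In rich vehicle TXNIP stood at 28.4 ± 8.13 CPM, and its log2 fold change was 0.60 for BafA1 (adjusted p = 0.24) and -2.98 for depletion (adjusted p = 4.5e-05). Of 7 MondoA and ChREBP genes tested, 3 were higher in the BafA1 group (42.9%, against 3.14% over all genes), with and without replicate 3. They were TXNIP, its relative ARRDC4 (1.77) and the transcription factor KLF10 (1.66). ARRDC4, at no more than 2.55 CPM in any of the 6 libraries, lost its call when BafA1 replicate 1 or 2 or depleted replicate 1 or 2 was left out (adjusted p 0.074 to 0.18). The TXNIP promoter holds a pair of E-boxes (CACGNG, 5 bases of any kind, CACGNG), the form of the carbohydrate response element that MondoA and ChREBP bind. The stretch is shown because TXNIP was the 1 gene of the 6 with a promoter in the RefSeq table that held it, and 0.0732% of all 27305 promoters (250 bases before to 50 after the start, both strands searched) did. It lies on the minus strand at chr1:145996636-145996682 (GRCh38.p14, RefSeq), the match begins 88 bases before the transcription start, and capitals mark it.
TXNIP: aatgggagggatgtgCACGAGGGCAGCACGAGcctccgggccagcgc
A match of letters describes the promoter and shows no binding.

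Genes induced under low oxygen through HIF, several of them enzymes of glucose use, were partly higher in the BafA1 group. Of 23 tested, 11 were higher (47.8%, against 3.14% over all genes) and none lower (median 0.89). Without replicate 3, 15 were higher, and 7 were when BafA1 replicate 2 or depleted replicate 1 was left out. Against rich vehicle the medians were 0.76 for BafA1 and -0.27 for depletion. BHLHE40, a transcriptional repressor, stood at 76.8, 99.2 and 39.7 CPM in the BafA1 libraries and 11.9, 11.98 and 15.6 CPM in the depleted ones (2.45, SE 0.28, adjusted p = 0.00039). It was near the depleted level in rich vehicle, 14.6 ± 3.597 CPM, so that its log2 fold change was 2.29 for BafA1 (adjusted p = 0.00038) and -0.16 for depletion (adjusted p = 0.7). BNIP3, a mitophagy receptor chosen for its promoter below, had the same order, with 59.5, 92.2 and 51.6 against 17.4, 14.8 and 23.2 CPM and 17.8 ± 7.403 CPM in rich vehicle (1.87, adjusted p = 0.0024). CA12, a membrane carbonic anhydrase, stood at 5.54, 12.2 and 4.97 against 1.36, 1.54 and 1.65 CPM (2.32, adjusted p = 0.0022). In each of these 3 genes the groups did not overlap, and replicate 3 was the lowest BafA1 library. Other HIF genes did not separate the groups. VEGFA, the angiogenic growth factor, stood at 163, 165 and 165 against 143, 182 and 152 CPM (log2 fold change 0.05, 95% interval -0.26 to 0.36), and NDRG1 at 63.96, 86.9 and 77.3 against 83.3, 64.4 and 77.5 CPM (0.02, interval -0.30 to 0.34). Both were called higher than rich vehicle in each group, VEGFA by 0.80 and 0.76 and NDRG1 by 2.11 and 2.09 for BafA1 and depletion.

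The core of the hypoxia response element, ACGTG on either strand, was in 10 of 19 promoters of the HIF list, in 8 of 19 of the glycolysis list and in 21.6% of all promoters. It was also in 9 of 16 promoters of the V-ATPase list, 17 of 35 of the ribosome biogenesis list and 2 of 13 of the ERK list. A high share was thus not particular to HIF and glycolysis genes. LDHA and BNIP3 are shown because they belong to the called genes of the glycolysis and HIF lists. The LDHA stretch is on the plus strand at chr11:18394366-18394506 and its first match begins 185 bases before the start. The BNIP3 stretch is on the minus strand at chr10:131982040-131982069 with a match 134 bases before the start (GRCh38.p14, RefSeq). Capitals mark the element read on either strand, and CACGTG holds it on both.
LDHA: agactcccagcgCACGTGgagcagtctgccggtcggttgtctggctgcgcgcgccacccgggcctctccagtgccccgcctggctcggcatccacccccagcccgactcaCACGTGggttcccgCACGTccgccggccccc
BNIP3: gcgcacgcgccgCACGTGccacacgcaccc

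Genes of cholesterol synthesis and uptake were higher in the BafA1 group, and most of them stood near that level in depleted medium with the drug too. Of 26 tested, 16 were higher (61.5%, against 3.14% over all genes) and none lower (median 1.22), and 21 were higher without replicate 3. The count was 10 without depleted replicate 1, 11 without BafA1 replicate 1 or 2, 12 without depleted replicate 3 and 16 without depleted replicate 2. INSIG1, which holds the sterol sensor in the endoplasmic reticulum and is itself a target of SREBP (chromosome 7, 155297878 to 155310235), stood at 437, 481 and 221 CPM in the BafA1 libraries and 76.3, 98.8 and 71.2 CPM in the depleted ones. The groups did not overlap, and replicate 3 lay between the others (log2 fold change 2.21, SE 0.24, adjusted p = 0.00025; 2.49 without it). Rich vehicle stood at 169 ± 9.27 CPM, below the BafA1 and above the depleted libraries, and depleted medium with bafilomycin A1 at 296 ± 24.8 CPM. ACAT2, which makes the first precursor, stood at 132, 146 and 73.1 against 36.4, 35.01 and 35.05 CPM (1.72, adjusted p = 0.0017). HMGCS1, the next enzyme, stood at 526, 597 and 294 against 206, 198 and 198 CPM (1.24, adjusted p = 0.011; lost without BafA1 replicate 1 or 2 or depleted replicate 1 or 2, adjusted p 0.051 to 0.091). In all 16 called genes the rich vehicle mean lay between the groups, and in 13 of the 16 the mean of depleted medium with bafilomycin A1 was nearer to the BafA1 group, compared with 2 of the 15 called glycolysis genes. Other called members were IDI1, LSS, MVD, MVK, EBP, FDPS, FDFT1, MSMO1, NSDHL, DHCR7 and SC5D, at log2 fold changes of 0.85 to 1.65. SQLE, CYP51A1, STARD4 and HSD17B7 were not called in the main fit but were among the genes called without replicate 3 (0.72 to 1.10). The sterol element TCACNCCAC, searched for as the site of SREBP, was in 1 of 19 promoters of this list and in 1.15% of all promoters. That promoter was of SREBF2 and not of INSIG1. Of 13 promoters of the fatty acid list 0 held the element.

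Fatty acid genes followed in part. Of 14 tested, 7 were higher and 1 lower (50% and 7.14%, against 3.14% and 0.875% over all genes), with a median of 0.65. The counts were 9 and 1 without replicate 3, and 2 to 6 and 0 with any 1 of the other 5 libraries left out. ACSS2, which activates acetate, stood at 297, 303 and 139 against 71.5, 68.7 and 72.8 CPM (1.79, adjusted p = 0.00091), and the fatty acid elongase ELOVL6 at 51.99, 68.6 and 28.02 against 14.5, 18.1 and 15.1 CPM (1.64, adjusted p = 0.0028). Fatty acid synthase, FASN, stood at 1326, 1818 and 747 against 499, 499 and 405 CPM (1.47, adjusted p = 0.011; lost without BafA1 replicate 1 or 2 or depleted replicate 1 or 3, adjusted p 0.054 to 0.092). The exception was GPAM, the first enzyme of triglyceride assembly, at 68.3, 62.3 and 117 against 134, 141 and 152 CPM (-0.79, adjusted p = 0.041), whose call was lost without any 1 of the 5 libraries other than BafA1 replicate 3 (adjusted p 0.1 to 0.26). ABCA1, the sterol efflux pump switched on by LXR when sterols are plentiful, went the other way from the synthesis genes without reaching the threshold. It stood at 8.001, 14.6 and 66.6 CPM in the BafA1 libraries and 148, 124 and 98.5 CPM in the depleted ones. The groups did not overlap, but BafA1 replicate 3 was far above its own group. The log2 fold change was -2.06 (95% interval -3.53 to -0.58, adjusted p = 0.11), and -3.45 without replicate 3, where it was called. Of 9 LXR and sterol efflux genes, edgeR called none (4 at an unadjusted p under 0.05, 2 called lower by DESeq2), and without replicate 3 ABCA1, MYLIP and SMPDL3A were called lower.

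Genes that report signalling through receptor tyrosine kinases and ERK were higher in the BafA1 group. Of 20 feedback and output genes 16 were higher (80%, against 3.14% over all genes) and none lower (median 1.29). The count stayed at 16 without replicate 3, and it was 10 to 13 with any 1 of the other 5 libraries left out, lowest without BafA1 replicate 2. DUSP6, the phosphatase that switches ERK off (chromosome 12, 89347235 to 89352501), stood at 65.4, 61.6 and 33.7 CPM in the BafA1 libraries and 6.46, 8.04 and 7.25 CPM in the depleted ones. All BafA1 libraries lay well above all depleted ones, with replicate 3 the lowest of them. The log2 fold change was 2.89 (SE 0.24, adjusted p = 5.2e-05), and 3.13 without replicate 3. Rich vehicle was higher than both, at 90.6 ± 7.61 CPM, with log2 fold changes of -0.76 for BafA1 (adjusted p = 0.038) and -3.64 for depletion (adjusted p = 1.3e-06). The ETS transcription factors ETV4 and ETV5 stood at 93.3, 105 and 45.5 against 15.3, 12.5 and 14.01 CPM and at 39.4, 35.4 and 18.01 against 5.41, 7.96 and 4.62 CPM (2.55 and 2.37, adjusted p = 0.00031 and 0.00041). The other called members were DUSP4, DUSP5, SPRY1, SPRY2, SPRY4, SPRED1, SPRED2, IER3, FOSL1, FOS, EGR1, PHLDA1 and CCND1, at 0.72 to 2.19. For the list as a whole the medians against rich vehicle were -0.27 for BafA1 and -1.34 for depletion.

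Several secreted and surface proteins of epithelial tumour cells were among the 10 highest fold changes, ranked where a called gene averaged 5 CPM or more over the 6 libraries and its groups stayed apart. CEACAM1, an adhesion molecule of epithelial and immune cells (chromosome 19, 42507306 to 42528481), had the highest, at 81.7, 91.5 and 34.1 CPM in the BafA1 libraries and 3.43, 5.56 and 2.46 CPM in the depleted ones. No library of 1 group reached the other group, and replicate 3 was again the lowest of the BafA1 libraries. The log2 fold change was 4.18 (SE 0.45, adjusted p = 0.00031), and 4.51 without replicate 3. Rich vehicle, at 18.9 ± 5.202 CPM, lay between, and both differences from it were called (1.87 for BafA1, adjusted p = 0.01; -2.31 for depletion, adjusted p = 0.0011). CEACAM6 stood at 76.2, 128 and 33.7 against 7.54, 12.7 and 3.65 CPM (3.31, adjusted p = 0.011) and lost its call without depleted replicate 1 (adjusted p = 0.088). CEACAM genes are close copies of each other, so the split of reads between them is uncertain. CST1, a secreted inhibitor of cysteine proteases, stood at 831, 679.8 and 259.5 against 46.5, 112 and 45.5 CPM (3.12, adjusted p = 0.0056), and the collagenase MMP1 at 31.8, 50.4 and 18.2 against 2.62, 6.92 and 2.46 CPM (3.07, adjusted p = 0.0034). The creatine kinase CKB stood at 896, 1820.0 and 588 against 152, 191 and 175 CPM (2.67, adjusted p = 0.00074), and the butyrophilin BTN1A1 at 21.7, 29.9 and 19.6 against 2.89, 4.52 and 4.79 CPM (2.55, adjusted p = 5.6e-05). CKB was called higher than rich vehicle under BafA1 (1.39, adjusted p = 0.016) and lower under depletion (-1.29, adjusted p = 0.0084), whereas BTN1A1 was lower in both (-0.75 and -3.30). The list of NF-kB targets and CEACAM genes had 6 of 18 members higher (33.3%, against 3.14% over all genes). The other 4 were BIRC3 (1.63, lost without BafA1 replicate 2 or depleted replicate 1, adjusted p 0.059 to 0.063), LIF, IL32 and TNFAIP3. The count was 8 without replicate 3, but 1 to 3 when any 1 of the other 5 libraries was left out, lowest without depleted replicate 1.

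**Figure D3:**
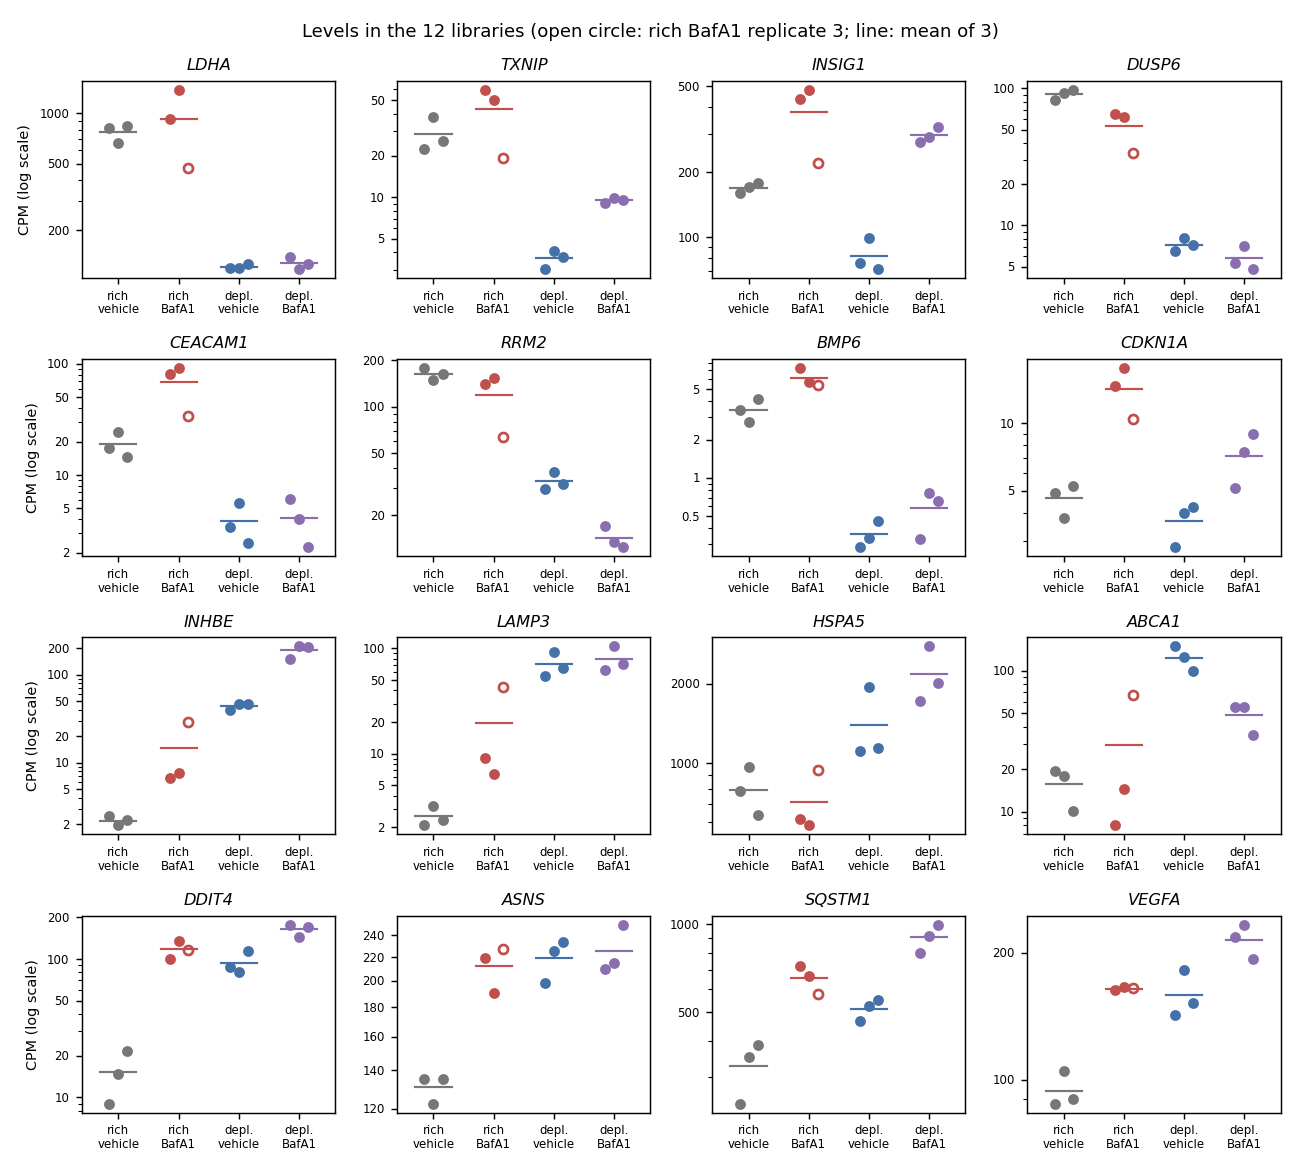
CPM on a log axis in the 12 libraries for 16 genes, with replicates in order, the mean of 3 as a line and BafA1 replicate 3 as an open circle. In the upper 8 genes the BafA1 libraries lie above the depleted vehicle libraries; in INHBE, LAMP3, HSPA5 and ABCA1 they lie below, with replicate 3 nearest to the depleted group; DDIT4, ASNS and VEGFA overlap.

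DNA replication genes were higher in the BafA1 group, by log2 fold changes of 0.70 to 1.85 where called. Of 40 tested, 27 were higher (67.5%, against 3.14% over all genes) and none lower (median 0.86), and 34 were higher without replicate 3. The number of calls depended on single libraries, at 6 without BafA1 replicate 1 or depleted replicate 1, 7 without BafA1 replicate 2, 14 without depleted replicate 2 and 10 without depleted replicate 3. In all 27 the rich vehicle mean lay above both groups, and the list's median against it was -0.45 for BafA1 and -1.30 for depletion. RRM2, the subunit of ribonucleotide reductase that limits the supply of DNA precursors (chromosome 2, 10122568 to 10211010), stood at 141, 154 and 63.7 CPM in the BafA1 libraries and 29.6, 37.9 and 31.97 CPM in the depleted ones. Groups did not overlap, and replicate 3 lay between (1.85, SE 0.26, adjusted p = 0.0011; 2.15 without it). MCM10, which helps to start the replicative helicase, stood at 43.5, 47.6 and 21.8 against 11.8, 14.99 and 12.5 CPM (1.52, adjusted p = 0.0037). UHRF1, which keeps DNA methylation through replication, stood at 52.2, 58.3 and 23.6 against 16.8, 17.8 and 16.8 CPM (1.38, adjusted p = 0.0091), lost without BafA1 replicate 1 or 2 or depleted replicate 1 (adjusted p 0.057 to 0.073). Of 35 genes of mitosis 3 were higher (8.57%, against 3.14% over all genes, with a median of 0.31), namely SPC25 (1.05), CDK1 (0.81) and ANLN (0.70). Without replicate 3 the number was 11, and without any 1 of the other 5 libraries it was 0. The proliferation marker MKI67 stood at 147, 185 and 127 against 113, 137 and 89.6 CPM (0.44, 95% interval -0.15 to 1.02) and was not called with or without replicate 3, while both groups were called lower than rich vehicle (-1.03 and -1.47). Whether the replication and mitosis lists differ from each other was not tested. CDKN1A, the p21 inhibitor of cell cycle kinases, was also higher in the BafA1 group, at 14.7, 17.6 and 10.5 against 2.804, 3.96 and 4.22 CPM (1.96, adjusted p = 0.0011), and was called higher than rich vehicle under BafA1 alone (1.62, adjusted p = 0.0025; depletion -0.34, adjusted p = 0.37). It and PLK3 were the 2 called of 17 p53 targets (11.8%, against 4.01% over all genes). PLK3 lost its call without any 1 of the 5 libraries other than BafA1 replicate 3 (adjusted p 0.056 to 0.14).

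The E2F site TTTGGCGC was in 7 of 35 promoters of the replication list and in 0.659% of all promoters. E2F1 and MCM6 are shown as a regulator and a helicase subunit that were both called. E2F1 stood at 91.8, 84.7 and 50.7 against 29.8, 35.7 and 34.7 CPM (1.18, adjusted p = 0.0066; lost without BafA1 replicate 1 or depleted replicate 1, 0.052 to 0.063) and MCM6 at 116, 131 and 63 against 47.2, 52.6 and 47.3 CPM (1.08, adjusted p = 0.015; lost without BafA1 replicate 1 or 2 or depleted replicate 1 or 3, 0.059 to 0.12). Both are on the minus strand, at chr20:33686386-33686420 and chr2:135876511-135876610 (GRCh38.p14, RefSeq), with the first match 20 and 152 bases before the start and in capitals.
E2F1: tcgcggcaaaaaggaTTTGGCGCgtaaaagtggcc
MCM6: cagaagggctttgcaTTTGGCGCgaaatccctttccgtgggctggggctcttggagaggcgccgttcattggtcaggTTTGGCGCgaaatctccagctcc

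Other growth and identity genes added to the higher side. Of 19 WNT and stem cell genes, 4 were higher (21.1%, against 3.14% over all genes). They were LGR5, a receptor of gut stem cells, at 38, 30.8 and 23.6 against 9.83, 10.8 and 11.9 CPM (1.51, adjusted p = 0.0013), CD44 (1.31), MYC (1.08) and SOX9 (0.97). LGR5 held with any 1 library left out, while CD44, MYC and SOX9 lost their calls without BafA1 replicate 1 or 2 or depleted replicate 1 or 2 (adjusted p 0.056 to 0.083, 0.061 to 0.12 and 0.055 to 0.079), so that 1 of the 4 was left. Of 21 YAP and SRF targets 4 were higher and 1 lower (19% and 4.76%, against 3.14% and 0.875% over all genes). ANKRD1, a target of YAP, stood at 147, 118 and 61.1 against 15.1, 25.2 and 17.9 CPM (2.49, adjusted p = 0.00025) and the natriuretic peptide gene NPPB at 19.6, 26.2 and 19.3 against 1.81, 6.53 and 3.62 CPM (2.46, adjusted p = 0.0046). Both were at higher means in rich vehicle, 184 ± 8.93 and 73.1 ± 27.3 CPM. The other 3 calls of that list, ACTB, FHL2 and the lower AJUBA, were at 0.83, 0.87 and -0.66, and all 3 lost their calls without BafA1 replicate 1 or 2 or depleted replicate 1 or 2, ACTB and AJUBA also without depleted replicate 3 (adjusted p 0.11 to 0.28, 0.093 to 0.17 and 0.13 to 0.27). SLC7A8, an exchanger of neutral amino acids, stood at 382, 378 and 162 against 50.5, 68.2 and 44.3 CPM (2.50, adjusted p = 0.00091), and the tight junction claudin CLDN2 at 15.7, 19.3 and 7.99 against 2.15, 3.49 and 2.62 CPM (2.38, adjusted p = 0.0012). BMP6, a ligand that sets iron regulation, stood at 7.29, 5.696 and 5.42 against 0.284, 0.335 and 0.4598 CPM, with BafA1 replicate 3 close to replicate 2 (4.09, SE 0.38, adjusted p = 8e-05). Proteasome genes had 5 of 31 higher (16.1%, against 3.14% over all genes), namely PSMD1, PSMB2, PSMD2, PSMC4 and PSMD11 (0.60 to 0.82). That number was 0 without any 1 of the 5 libraries other than BafA1 replicate 3 and 7 without that library.

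**Figure D4:**
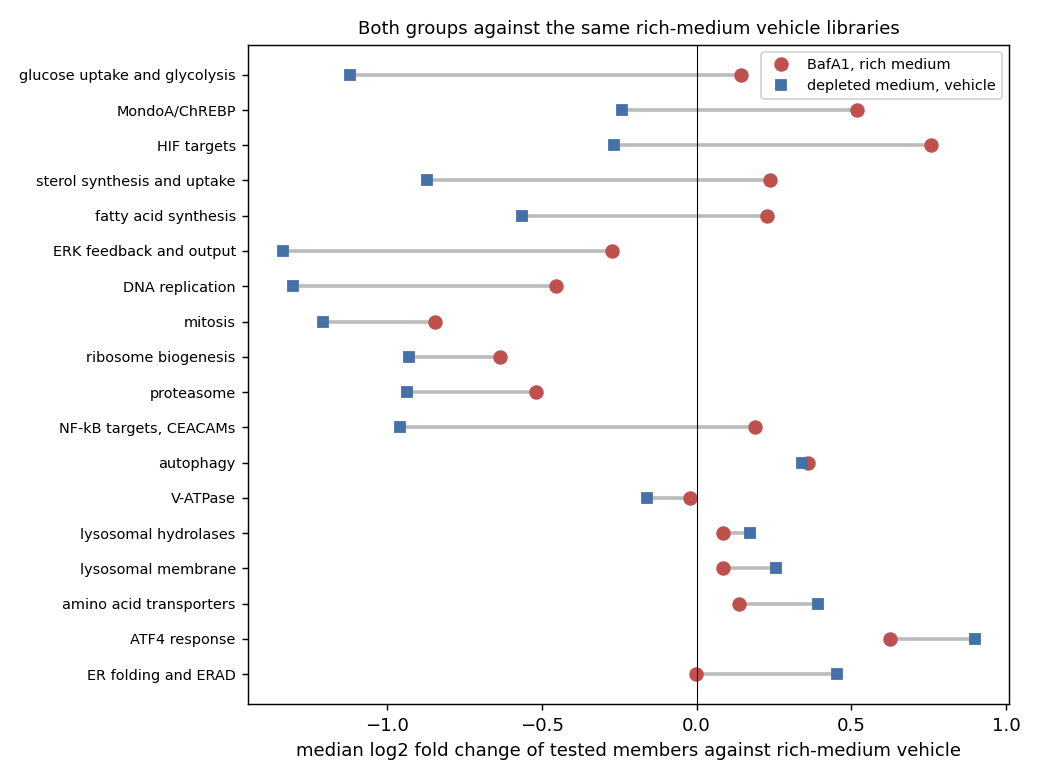
Median log2 fold change of the tested members of 18 gene lists against the same 3 rich vehicle libraries (x axis), for BafA1 in rich medium (circles) and depletion with vehicle (squares). The marks lie far apart for glycolysis (0.14 and -1.12) and ERK genes (-0.27 and -1.34) and close together for autophagy (0.36 and 0.34).

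Genes of protein folding in the endoplasmic reticulum were in part lower in the BafA1 group. Of 26 tested, 3 were lower (11.5%, against 0.875% over all genes) and none higher (median -0.56), and 24 had a log2 fold change below 0. Without replicate 3, 8 were lower, and without any 1 of the other 5 libraries none was. SEL1L, the scaffold of the ERAD complex that removes misfolded proteins (chromosome 14, 81471547 to 81533853), stood at 195, 199 and 351 CPM in the BafA1 libraries and 486, 705 and 470.2 CPM in the depleted ones. Groups did not overlap, and BafA1 replicate 3 was the highest of its group. The log2 fold change was -1.16 (SE 0.27, adjusted p = 0.031; 0.05 to 0.2 with any 1 of the other 5 libraries left out), and -1.49 without replicate 3. The co-chaperones DNAJB9 and DNAJC3 were at -0.93 and -0.75 (adjusted p = 0.047 and 0.042). In DNAJB9 the groups overlapped, at 49.0, 42.2 and 85.8 against 85.6, 139.9 and 111.1 CPM. With the 6 libraries fitted alone DNAJB9 was not called (edgeR adjusted p = 0.074). The main chaperone HSPA5 stood at 617, 580.5 and 942 against 1113, 1935 and 1146 CPM (-0.97, 95% interval -1.56 to -0.38, adjusted p = 0.061), with the BafA1 libraries below the depleted ones, and was called without replicate 3 (-1.22). CRELD2, a folding factor shown for its promoter, stood at 10.7, 11.5 and 18.3 against 16.7, 30.2 and 23.1 CPM and was called without replicate 3 (-1.07). In rich vehicle HSPA5 stood at 795 ± 165 CPM, and its log2 fold change was -0.16 for BafA1 (adjusted p = 0.76) and 0.81 for depletion (adjusted p = 0.035). The endoplasmic reticulum stress element (CCAAT, 9 bases of any kind, CCACG, either strand) was in 6 of 23 promoters of the list and in 0.0806% of all promoters. HSPA5 lies on the minus strand (chr9:125241379-125241421) and CRELD2 on the plus strand (chr22:49918542-49918584; GRCh38.p14, RefSeq), with the element in capitals, beginning 66 and 80 bases before the start and reversed in CRELD2.
HSPA5: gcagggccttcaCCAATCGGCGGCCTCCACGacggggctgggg
CRELD2: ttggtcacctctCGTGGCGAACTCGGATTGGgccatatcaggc

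The amino acid response, driven by ATF4 when uncharged tRNA builds up or the endoplasmic reticulum is stressed, held some lower genes and several in which the groups overlapped. Of 37 tested, 2 were lower in the BafA1 group (5.41%, against 0.875% over all genes) and none higher (median -0.29), 9 were lower without replicate 3, and none was without any 1 of the other 5 libraries. Against rich vehicle the list's median was 0.62 for BafA1 and 0.90 for depletion. The 2 calls were ALDH1L2, a mitochondrial folate enzyme, at 51.5, 51.4 and 89.2 against 128, 104 and 120.3 CPM (-0.88, adjusted p = 0.036), and KLHL24 (-0.72, adjusted p = 0.047). ASNS, the asparagine synthetase, stood at 219, 191 and 227 against 198, 226 and 234 CPM (-0.05, 95% interval -0.35 to 0.26), and both groups were called higher than rich vehicle (0.70 and 0.74). ATF3 stood at 36.4, 38.5 and 40.3 against 32.7, 39.1 and 47.4 CPM (-0.05, interval -0.39 to 0.29) and the glutathione-degrading CHAC1 at 19.4, 20.6 and 29.3 against 28.1, 31.2 and 33.4 CPM (-0.42, interval -0.89 to 0.05). NUPR1 was at -0.60 with a wide interval, -1.69 to 0.49. In these 4 genes the groups overlapped. INHBE, a secreted activin subunit, differed more, at 6.79, 7.704 and 29.2 against 39.6, 46.7 and 46 CPM, with replicate 3 well above the other BafA1 libraries (-1.60, interval -2.53 to -0.67, adjusted p = 0.058; called without replicate 3 at -2.60). DDIT3, the stress factor CHOP, stood at 22.2, 20.3 and 53.8 against 54.6, 61.8 and 78.8 CPM, replicate 3 nearly at the lowest depleted library (-1.02, interval -1.68 to -0.36; called without replicate 3 at -1.61). The amino acid response element TGATGNAA was in 5 of 29 promoters of the list and in 3.67% of all promoters. It was also in 6 of 18 promoters of the tRNA synthetase list, in which edgeR called no gene. ASNS and CHAC1 are shown as examples of named genes that carry it and whose groups overlapped (ATF3 is another). They lie at chr7:97872454-97872491 on the minus and chr15:40953247-40953284 on the plus strand (GRCh38.p14, RefSeq), the element, reversed in CHAC1, beginning 68 and 209 bases before the start.
ASNS: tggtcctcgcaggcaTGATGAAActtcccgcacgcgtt
CHAC1: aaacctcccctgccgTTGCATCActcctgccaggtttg

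By the same ranking the 10 lowest fold changes ran from -1.92 to -1.44, and none of the 10 calls held when BafA1 replicate 1 or 2 was left out. NPR1, the receptor of natriuretic peptides (chromosome 1, 153678688 to 153693992), stood at 2.26, 1.803 and 3.51 CPM in the BafA1 libraries and 10.2, 11.8 and 6.54 CPM in the depleted ones. The groups did not overlap (-1.92, SE 0.44, adjusted p = 0.026; -2.23 without replicate 3), and rich vehicle was at 0.909 ± 0.621 CPM. The neighbouring genes SERPINF2, the inhibitor of plasmin, and SERPINF1, a factor against vessel growth, stood at 16.9, 21.9 and 55.2 against 115, 98.6 and 91.4 CPM (-1.70, adjusted p = 0.048) and at 2.74, 4.24 and 7.04 against 18.02, 13.5 and 10.2 CPM (-1.58, adjusted p = 0.036). FGB, the fibrinogen beta chain, stood at 24.2, 26.8 and 41.2 against 85.97, 108 and 57.8 CPM (-1.45, adjusted p = 0.041), and PDGFRB, a receptor best known from fibroblasts and pericytes, at 4.51, 5 and 9.46 against 17.7, 22.9 and 12.8 CPM (-1.50, adjusted p = 0.017). In each of these genes the BafA1 replicate nearest to the depleted libraries was replicate 3. PDGFRB is on the fibroblast marker list given above, of which it was the 1 called member of 6 tested (16.7%, against 4.01% over all genes). The others were SUSD4 (-1.80), NKX1-2 (-1.60), CYFIP2 (-1.53), CHST9 (-1.44) and LCN12 (-1.44). Where these 10 calls were lost with 1 library left out, the adjusted p ran from 0.051 to 0.25.

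Lysosomal, autophagy and V-ATPase genes, the machinery that bafilomycin A1 acts on, were called about as often as genes in general, 4 of 128 (3.12%, against 4.01% over all genes). EdgeR called none of 25 V-ATPase genes (6 at an unadjusted p under 0.05; 1 higher by DESeq2; median 0.12) and none of 41 autophagy genes (8 at an unadjusted p under 0.05; 1 higher and 2 lower by DESeq2; median -0.02). Without replicate 3, ATP6V1E1, a stalk subunit, and ATG4A were higher and ULK2 and ATG2B lower, all 4 named because they were the calls of these lists in that fit. The autophagy medians against rich vehicle were 0.36 for BafA1 and 0.34 for depletion. ATP6V0D1, a V-ATPase subunit, stood at 117, 115 and 89.9 against 86.5, 83.99 and 89.6 CPM (0.30, 95% interval 0.02 to 0.59). SQSTM1, the autophagy receptor p62, stood at 724, 664 and 577 against 466, 524 and 552 CPM, the groups just not overlapping (0.35, interval -0.06 to 0.75), and MAP1LC3B at 160.5, 139 and 126 against 107, 93.3 and 111 CPM (0.45, interval 0.03 to 0.86). Against rich vehicle SQSTM1 was called higher in both groups, by 1.00 and 0.65 for BafA1 and depletion.

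Of 41 lysosomal hydrolases 2 were higher (4.88%, against 3.14% over all genes). These were the thioesterase PPT1 at 195, 196 and 118 against 66.7, 95.6 and 62.99 CPM (1.18, adjusted p = 0.0087) and the galactosidase GLA at 26.1, 26.7 and 15.3 against 8.15, 13.9 and 8.28 CPM (1.17, adjusted p = 0.03). PPT1 lost its call without BafA1 replicate 1 or 2 or depleted replicate 1 (adjusted p 0.057 to 0.07), and GLA also without depleted replicate 3 (adjusted p 0.11 to 0.18). The protease CTSD stood at 348, 456 and 351 against 323, 519.8 and 337 CPM with overlapping groups (-0.03, interval -0.60 to 0.53). CTSC stood at 139.6, 184 and 128 against 83.4, 123 and 106 CPM (0.53, interval 0.14 to 0.92, called without replicate 3 at 0.64). Among 21 lysosomal membrane genes 1 was higher and 1 lower (4.76% each, against 3.14% and 0.875% over all genes). LAPTM4B was higher (0.88), a call lost without BafA1 replicate 1 or 2 or depleted replicate 1 or 3 (adjusted p 0.095 to 0.2). CLN3, mutated in a lysosomal storage disease, was lower (-0.68), a call lost without any 1 of the 5 libraries other than BafA1 replicate 3 (adjusted p 0.078 to 0.25). The calcium channel MCOLN1 was at -0.29 (interval -0.82 to 0.24). LAMP3 stood at 9.09, 6.43 and 42.8 CPM in the BafA1 libraries and 54.97, 91.9 and 65.4 CPM in the depleted ones, replicate 3 far above its own group and just below the depleted one (-1.87, interval -3.21 to -0.53, adjusted p = 0.11; called without replicate 3 at -3.19). In rich vehicle LAMP3 was at 2.54 ± 0.592 CPM.

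Of 34 regulators of mTORC1, 1 was called (2.94%, against 4.01% over all genes). SESN3, a sestrin that restrains mTORC1, was lower in the BafA1 group, at 55, 42.1 and 96.4 against 164, 117 and 131 CPM (-1.09, adjusted p = 0.034; 0.061 to 0.22 with any 1 library other than BafA1 replicate 3 left out). Without replicate 3 SESN2 and TFEC were lower too. DDIT4, an mTORC1 inhibitor, stood at 100.7, 136 and 116 against 86.9, 80.3 and 115 CPM with overlapping groups (0.32, interval -0.19 to 0.83), and was called far above rich vehicle, 15.2 ± 6.34 CPM, in both (2.94 and 2.61). RRAGD, a Rag GTPase that responds to TFEB, stood at 17.8, 20.2 and 14.4 against 9.002, 10.6 and 15.4 CPM, also overlapping (0.58, interval 0.07 to 1.10). For iron, the transferrin receptor TFRC stood at 939.9, 994 and 632 against 371, 656 and 446 CPM (0.80, interval 0.28 to 1.33; called without replicate 3 at 0.98), and ferritin FTH1 at 509, 408 and 428 against 408, 304 and 442 CPM (0.22, interval -0.33 to 0.77).

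Of 23 amino acid transporters 1 was higher (SLC7A8, above) and 2 lower (4.35% and 8.7%, against 3.14% and 0.875% over all genes). The lower ones were the glutamate transporter SLC1A1 (-1.02) and the glycine transporter SLC6A9 (-0.97), with 2 higher and 6 lower without replicate 3. Both lower calls were lost without BafA1 replicate 1 or 2 or depleted replicate 2 (adjusted p 0.075 to 0.094 and, over all 5 other libraries, 0.078 to 0.22). Of 25 antioxidant genes 3 were higher and 1 lower (12% and 4%, against 3.14% and 0.875% over all genes). Among the higher were GPX2 (1.78) and NQO1 (0.75). The lower was AKR1C2 (-0.92), whose reads cannot be split with certainty from those of other AKR1C copies. None of these 3 named genes held its call without BafA1 replicate 1 or 2. Of 23 interferon genes 2 were higher (8.7%, against 3.14% over all genes), OAS3 (1.47) and OAS1 (0.85), and OAS3 alone held with any 1 library left out. Of 11 metallothionein and zinc genes SLC39A4 was higher (1.40), of 21 heat shock genes HSPB1 (1.05), and of 41 ribosome biogenesis genes BOP1 (0.86). These were shares of 9.09%, 4.76% and 2.44%, against 3.14% over all genes, and these 3 calls were lost without BafA1 replicate 1 or 2. Of 25 fasting genes 1 was higher and 1 lower (4% each, against 3.14% and 0.875% over all genes). TRIB1 was higher (0.91, lost without BafA1 replicate 1 or 2 or depleted replicate 2 or 3, adjusted p 0.051 to 0.087) and SESN3 lower. The epithelial keratin KRT18 was higher (0.79, adjusted p 0.09 to 0.22 with any 1 library other than BafA1 replicate 3 left out). NOX1, an oxidase of colon epithelium, stood at 12.9, 17.4 and 8.79 against 3.56, 10.3 and 5.33 CPM (1.03, interval 0.33 to 1.74; called without replicate 3 at 1.25). EdgeR called none of 77 ribosomal protein, 34 histone, 56 nuclear respiratory chain, 13 mitochondrially encoded and 22 tRNA synthetase genes. At an unadjusted p under 0.05 there were 1, 1, 16, 0 and 8 of these, and DESeq2 called none of the first 2 lists or the fourth, 2 higher in the third and 1 lower in the last. Of the nuclear respiratory chain genes, 54 of 56 had a log2 fold change above 0 (median 0.36), and edgeR called 5 higher without replicate 3 and 15 higher with the 6 libraries fitted alone. Of the tRNA synthetase genes it called 2 lower without replicate 3.

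Of 30 enterocyte genes 2 were higher (6.67%, against 3.14% over all genes) and none lower (median -0.008). The mucin MUC13 stood at 19.01, 25.8 and 12.4 against 7.46, 7.87 and 5.22 CPM (1.48, adjusted p = 0.016; lost without BafA1 replicate 1 or 2 or depleted replicate 1 or 3, 0.07 to 0.14). The glucose cotransporter SLC5A1, named here after its values were seen because it is the other call, stood at 2.03, 0.758 and 1.01 against 0.0813, 0.0279 and 0.216 CPM (3.52, SE 0.68), and its call was lost without BafA1 replicate 1 or depleted replicate 1 or 2 (adjusted p 0.052 to 0.083). Without replicate 3, 4 were higher and 5 lower. The alkaline phosphatase ALPI stood at 18.8, 25.2 and 25.7 against 24.6, 22.7 and 30.5 CPM (-0.16, interval -0.66 to 0.35) and villin, VIL1, at 221, 261 and 246 against 302, 269.8 and 269 CPM (-0.21, interval -0.59 to 0.17). Of 14 apolipoprotein and lipid assembly genes 1 was higher (7.14%, against 3.14% over all genes). It was APOA2 (0.82, adjusted p 0.057 to 0.16 with any 1 library other than BafA1 replicate 3 left out). Without replicate 3 the list had 3 higher and 4 lower.

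In a few genes BafA1 replicate 3 alone in its group carried a level like that of the depleted libraries. HSPA6, a stress-induced HSP70, stood at 0.182, 0.328 and 6.91 CPM in the BafA1 libraries and 6.26, 10.5 and 10.5 CPM in the depleted ones (-1.90, interval -4.20 to 0.41; -5.12 without replicate 3, where it was called). KLHDC7B stood at 1.57, 1.91 and 19.8 against 22.3, 29.6 and 29.2 CPM (-1.81, interval -3.65 to 0.04; -3.95 without replicate 3, called). NIBAN1 and the brush border enzyme SI, chosen after their values were seen, stood at 0.935, 0.984 and 12.4 against 12.7, 16.1 and 23.1 CPM and at 0.935, 0.861 and 20.5 against 33.6, 23.6 and 32.9 CPM. In these 4 genes BafA1 replicates 1 and 2 were at 0.182 to 1.91 CPM and replicate 3 at 6.91 to 20.5 CPM, and none of the 4 was called with replicate 3 in the fit.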

How the data were processed

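Gene expression was measured by stranded RNA sequencing of total RNA after removal of ribosomal RNA, per the labels' protocols. For each library the authors deposited a table with, per the file headers, 1 estimated count per gene (54553 genes; 5.08% of values are fractional). A second deposited table covers the series with a whole-number count for 13518 genes. The submitters' processing notes name DRAGEN and GRCh38; the sources used here give no versions, annotation release or strand setting, and reads of antisense overlaps and close copies may therefore be shared. Estimated counts were rounded. Genes were filtered with filterByExpr over the 4 groups (minimum count 10, minimum total 15) and scaled by TMM. All 12 libraries were fitted with edgeR 4.0.16 (R 4.3.3), 1 coefficient per group (8 residual degrees of freedom), and the BafA1 group was contrasted with the depleted group by quasi-likelihood tests at a Benjamini-Hochberg adjusted p of 0.05. Differences are log2 fold changes with the depleted group subtracted. CPM are TMM-scaled, and intervals are 95%.

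Named genes were the 10 highest and 10 lowest called log2 fold changes with a mean of at least 5 CPM over the 6 libraries and groups that did not overlap, leaving out names of clones, loci, antisense and small RNAs. Up to 3 called members in each direction with at least 1 CPM from each list, and a panel reported whether called or not, were added. The members, the 41 lists, the panel and the promoter motifs were chosen with earlier results of these data known. RefSeq matched 51557 of the deposited symbols and all 111 genes selected, of which a few are not reported here. Promoter windows came from the RefSeq table of GRCh38.p14; genes without an entry have none here. Same-numbered libraries of the BafA1 and depleted groups deviated together at r = 0.0192 to 0.0746, and replicate numbers were not treated as pairs in the main fit. The test was checked on simulated counts in which no library stood apart from its group, so the check does not cover the position of BafA1 replicate 3. Alternatives were scaling or testing with DESeq2 1.42.0, dropping the low-count filter, fitting the 6 libraries alone, blocking on replicate number, using the series-wide table, removal of mitochondrial, ribosomal protein and small RNA genes, leaving out each of the 6 libraries or the shallow rich vehicle library, and the 6 libraries without BafA1 replicate 3.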

Additional observations from a re-analysis of the deposited data

How the results depend on the processing

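Counts of higher and lower genes, 566 and 158, were 571 and 180 with DESeq2 size factors, 630 and 225 with the series-wide table and 661 and 194 without mitochondrial, ribosomal protein and small RNA genes. They were 1068 and 662 with the DESeq2 test, 1150 and 677 with no low-count filter, 1144 and 507 with the 6 libraries alone, 914 and 399 without the shallow rich vehicle library, and 2666 and 2380 with the 6 libraries less BafA1 replicate 3. With the replicate block they were 986 and 462. Same-numbered libraries of the BafA1 and depleted groups deviated together at r = 0.0192 to 0.0746. Whether replicate numbers pair libraries of the other groups was not tested. Leaving out 1 of the 6 libraries gave 135 to 1172 higher and 0 to 906 lower genes, the highest values being those without BafA1 replicate 3; the cause was not tested.

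Of 35 mitosis genes, 9 were higher with the DESeq2 test, 8 with no filter, 9 with the 6 libraries alone, 8 with the replicate block, 5 with the series-wide table, 7 without the shallow library and 18 with the 6 libraries less BafA1 replicate 3. For ATF4 genes the lower counts were 7 with the DESeq2 test, 8 with no filter, 8 with the replicate block and 17 with the 6 libraries less BafA1 replicate 3, and for endoplasmic reticulum genes 9, 12, 10 and 15 in that order. Leaving out 1 library gave 6 to 34 DNA replication, 7 to 15 hypoxia, 10 to 16 ERK, 10 to 21 cholesterol, 13 to 16 glycolysis and 0 to 11 mitosis genes higher, and 0 to 9 ATF4 and 0 to 8 endoplasmic reticulum genes lower. Of 84 selected genes called, 31 were called under all these alternatives, all 84 without BafA1 replicate 3, 82 with the replicate block and 78 with the 6 libraries alone.

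Signs changed in 5 genes that were not called, when 1 of the 6 libraries was left out: CTSD ranged from -0.17 to 0.22, ASNS from -0.12 to 0.025, NDRG1 from -0.088 to 0.13, VEGFA from -0.024 to 0.16 and ATF3 from -0.17 to 0.10. CTSD was also at 0.031 with the 6 libraries less BafA1 replicate 3. The median position of BafA1 replicate 3 was 34.8% on linear CPM, an alternative chosen after seeing the data. With 3 libraries a group and 1 of them apart, differences as large as those of ABCA1 (-2.06) and LAMP3 (-1.87) on the log2 scale were not called.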
